A study of Homo sapiens with 2 samples.

Results

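The regions described here are the NUSAP1 peaks at the edges of the assembled human genome: those on sequences that build hg38 does not place on a chromosome, or assigns to a chromosome without a position, and those whose summit lies in 1 of 11 windows around centromeres. The windows, in Mb, were 120 to 145 on chromosome 1, 88 to 98 on chromosome 2, 88 to 95 on chromosome 3, 48 to 53 on chromosome 4, 45 to 52 on chromosome 5, 57 to 63 on chromosome 7, 38 to 43 on chromosome 10, 49 to 56 on chromosome 11, 34 to 47 on chromosome 16, 21 to 28 on chromosome 17 and 25 to 32 on chromosome 20. Of the 9043 summits in the peak list, 247 met this rule, 206 in the windows and 41 on unplaced or unlocalized sequences. They stood in 238 peak regions. The rule uses position alone and no measured value, but the windows were set with earlier results of these data known.

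The peaks come from chromatin immunoprecipitation with sequencing (ChIP-seq) in AsPC1, an established line of human pancreatic ductal adenocarcinoma cells, with no treatment named. An antibody against NUSAP1 was used on formaldehyde-fixed, sonicated chromatin in 1 library, and input chromatin of the same cells, with no antibody, gave the other library. With 1 library of each kind and 1 cell line there is no spread between replicates. The q that the peak caller gave each summit is the only test of a single summit, and it says nothing of the spread between samples. What control it was computed against is not given in the sources used here.

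NUSAP1, the nucleolar and spindle-associated protein, binds microtubules, lies in the nucleolus between divisions and joins the spindle in mitosis. The nucleolus forms around tandem copies of the ribosomal RNA genes, each transcribed as a 45S precursor that is cut into the 18S, 5.8S and 28S RNAs. Chromosome regions next to centromeres are rich in satellite repeats and in duplicated segments, and many of their copies, like those of the ribosomal genes, are missing or collapsed in a reference assembly.

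Of the members in the windows, 1 had a peak that overlapped a RefSeq promoter sequence (250 bases before to 50 bases after a gene start). It is shown because no other member met a promoter of that table. The gene is KSR1 (gene ID 8844), a scaffold protein of the Ras to ERK kinase cascade. The promoter is chr17:27456198-27456497 on the plus strand of GRCh38.p14, printed 5′ to 3′, with the 90 bases that lay inside the peak in capitals.
KSR1: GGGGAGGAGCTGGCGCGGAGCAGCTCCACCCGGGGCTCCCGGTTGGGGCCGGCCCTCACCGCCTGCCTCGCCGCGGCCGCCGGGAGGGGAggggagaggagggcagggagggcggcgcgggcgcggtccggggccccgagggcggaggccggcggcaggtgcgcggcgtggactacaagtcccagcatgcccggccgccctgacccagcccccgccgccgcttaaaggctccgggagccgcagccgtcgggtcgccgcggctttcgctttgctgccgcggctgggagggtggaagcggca
The peak spanned 27455879 to 27456287 and its summit lay 304 bp before the gene start. It rested on 5 fragments where the peak caller expected 0.991. Its fold enrichment was 3.01 and its q, the p after the caller's own adjustment for multiple testing, 0.914. It thus did not pass the limit of 0.05 used throughout. This promoter was 79.3% G and C and held 40 CG pairs, against medians of 58.7% and 14 over the 35116 promoters of the table and 59.3% and 16 over the 359 promoters in the windows.

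Summits with q under 0.05 were frequent in these regions. They made up 63 of the 247 members (25.5%, 95% Wilson interval 20.5 to 31.3), where the whole list had 1.48% and the 8796 other summits had 71 (0.807%, 0.640 to 1.02). The share was 51.2% on the unplaced and unlocalized sequences (21 of 41) and 20.4% in the windows (42 of 206). The intervals treat summits as independent, although 27 of the 63 stood in clusters of 3 or more summits, described below, so they are too narrow. All of the 10 summits with the smallest q in the list were members, as were 40 of the 50 smallest, although members were 2.73% of the list. By fold enrichment, the caller's ratio of the summit to its local background with 1 added to each, the members' median was close to that of the rest. It was 2.93 (quartiles 2.45 and 3.60), and that of the other summits was 3.01 (2.75 and 3.51). A fold of at least 5 was reached by 13 members (5.26%), where the whole list had 0.597% and the other summits 41 (0.466%), and 7 of the 13 were on KI270733.1. Members made up 9 of the 20 highest folds.

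The members were set apart by how many fragments lay under them, in the precipitate and in the background alike. The background is the number of fragments that the caller expected at the summit, worked out here from the fold and the p. It had a median of 1.27 fragments in members and 0.906 in other summits, and it was at least 3 times the lowest value of the list, 0.708, at 92 members (37.2%) and at 103 other summits (1.17%). Over 100 fragments were expected at 27 members and at 1 other summit. The members with q under 0.05 rested on a median of 126 fragments over a median background of 44.8, and those that did not pass rested on 6 over 0.999. In the other summits with q under 0.05 the medians were 9 fragments and a background of under 1.

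**Figure D1:**
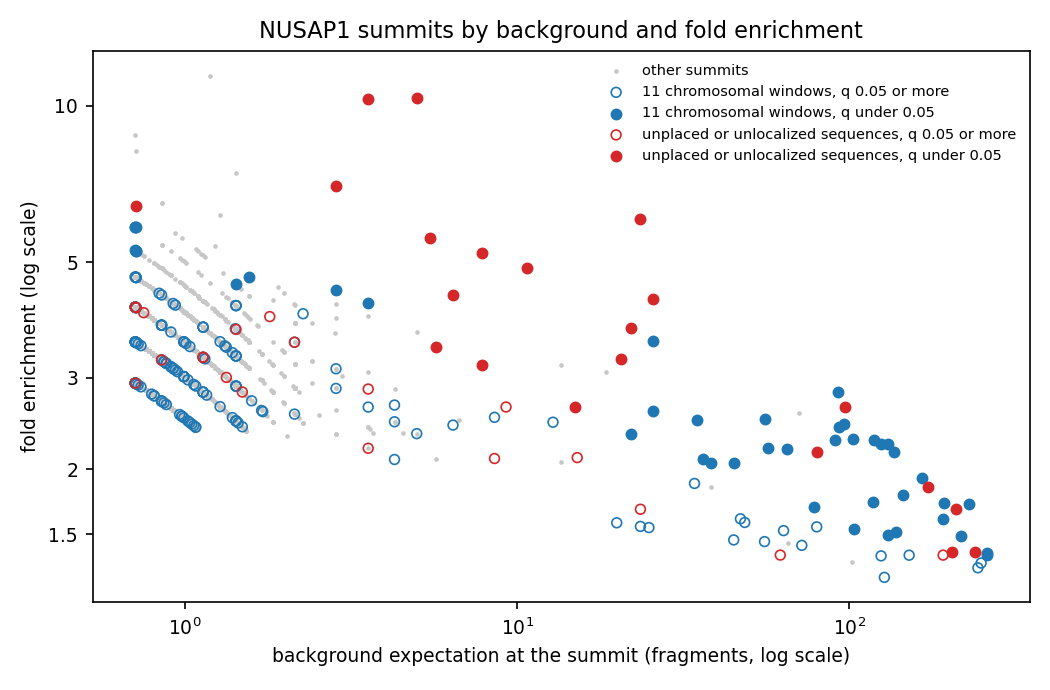
Each point is a summit, placed by its background expectation in fragments (x axis, log scale) and its fold enrichment (y axis, log scale). Grey points are the 8796 other summits, blue points the 206 in the chromosomal windows and red points the 41 on unplaced or unlocalized sequences, filled where q is under 0.05. Members extend to a background of 259.8 fragments, and their folds lie between 1.24 and 2.81 where it is over 100 times the lowest of the list.

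At 86 of the 92 members on a high background, and at 87 of the 103 other such summits, the background was a whole multiple of 0.712 fragments within 0.02 of a step. For values unrelated to a step fixed beforehand, 4% would be so. The step was fitted to these same backgrounds, so 4% is not the share to expect here and the contrast is no test. A control library scaled by 0.712 would give such steps, which was not tested. Read in this way, each multiple is a number of control fragments, and the ratio of fragments to background has a counting interval of its own. Over the 86 members on whole multiples, the ratio ran from 1.24 to 12.9 with a median of 2.25. The lower end of the exact (Clopper-Pearson) 95% interval was above 1 in 76, among them all 52 with q under 0.05, whose q rests on the same fragments. No summit of the list had a caller's p above 0.00497, and that p rests on the same fragments and background. An interval above 1 was therefore largely set in advance for all 86, and it is no separate support. These intervals cover counting error only, and fragments copied in library amplification are not independent.

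The ribosomal repeat on KI270733.1, an unlocalized sequence of chromosome 22, held the summit with the smallest q and the highest folds among the members. Its 12 summits lay in 9 regions, and 11 had q under 0.05. The gene table lists 13 genes together on a chromosome 22 sequence it does not name, ending at 179772. They were taken as those of KI270733.1 from knowledge of the assembly, and the match was not tested. They include RNA45SN4 (gene ID 109864271, 122273 to 135645), with RNA18SN4 (125931 to 127799), RNA5-8SN4 (128877 to 129032) and RNA28SN4 (130204 to 135280) inside it. A partial copy of the repeat lies 45081 bp further on, where RNA18SP4 starts at 171012.

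In the first copy, 4 of the 5 summits stood in 1 region, 135021 to 136186, at the end of the 28S gene. The summit at 135174 lay in RNA28SN4, 106 bp before its end, with 85 fragments over 22.1 expected (fold 3.73, q 7.73e-19). The next, at 135424, lay in the 3′ external transcribed spacer, the part of the precursor after the 28S RNA, with 69 over 20.5 (fold 3.25, q 7.15e-12). The highest, at 135756, lay 111 bp beyond the end of RNA45SN4 and had 147 over 23.5 (fold 6.04, q 2.31e-58). The last, at 136146, was 501 bp beyond the gene, had 33 over 15.2 (q 0.418) and did not pass. The fragments thus peaked just past the annotated end of the transcript. The terminator sequences bound by the factor TTF1 are known to lie beyond the 28S gene.

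The remaining summit of the first copy, at 130058, was in the second internal transcribed spacer, 146 bp before the start of RNA28SN4, with 26 fragments over 2.85 (fold 7.02, q 7.37e-12). Its counterpart in the partial copy was at 175155, with 10 over 0.712 (fold 6.43, q 8.07e-05). Moved back by 45081 bp, that summit fell at 130074, 16 bp from the first. This was the single place at which both copies held a summit. The last listed gene of the sequence ends at 179772, which moved back is 134691, so the region from 135021 on had no annotated counterpart in the partial copy.

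The other 6 summits of the partial copy fell, moved back in the same way, at the start of the precursor and between the 18S and 5.8S RNAs. At 166687 the summit was 667 bp before the start of the precursor, with 35 fragments over 5.45 (fold 5.58, q 3.11e-12). In the 5′ external transcribed spacer there were 4 summits, 192, 797, 1597 and 2678 bp after the start. They had 45 fragments over 7.83, 56 over 10.7, 112 over 25.6 and 46 over 3.56. Their folds were 5.21, 4.88, 4.24 and 10.3, and their q 1.01e-14, 3.49e-17, 4.12e-30 and 5.52e-29. At 173213, in the first internal transcribed spacer and 333 bp after the end of the 18S gene, 61 fragments stood over 4.98 (fold 10.4, q 6.34e-38). No summit in either copy fell in the 18S or 5.8S genes, and the single summit in the 28S gene was the one near its end.

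**Figure D2:**
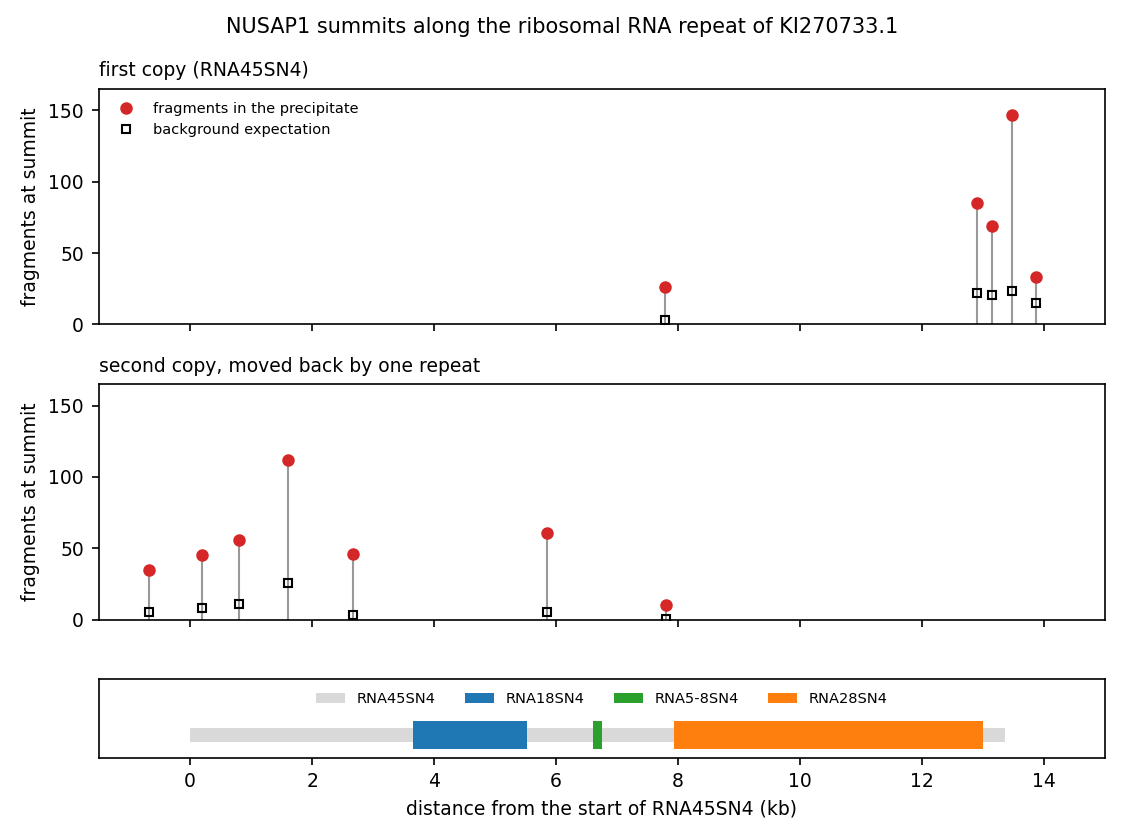
Fragments in the precipitate (red) and background expectation (open squares) at each of the 12 summits of KI270733.1, against the distance in kb from the start of RNA45SN4. The upper panel is the first copy, the middle panel the partial copy moved back by 45081 bp, and the bottom panel the RefSeq genes. The highest summit, 147 fragments, is just past the end of the precursor, and the summits of the partial copy lie at its start and in its internal spacers.

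The copies of the 45S gene that the table places on chromosome 21, RNA45SN1, RNA45SN2 and RNA45SN3, had no summit within 10 kb. The nearest summit on that chromosome was at 8989110, 542.5 to 769.8 kb from them. None of the 24 ribosomal RNA genes and pseudogenes of a list that the table places on assembled chromosomes had a summit within 1 kb. How the alignment treated reads that match several copies is not given in the sources used here. The share of the signal that each copy contributed therefore could not be told apart.

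The unplaced sequence KI270438.1 held the deepest background of the unplaced group. Its 6 summits spanned 8.18 kb, and each rested on 257 to 352 fragments over 96.8 to 239.1 expected. At 110513, 257 fragments stood over 96.8 (fold 2.64, q 6.33e-35, ratio interval 2.15 to 3.29). At 104051, 319 stood over 172.2 (fold 1.85, q 7.53e-18). A single region of 746 bp carried 3 summits, with folds of 1.38, 1.38 and 1.67 and q of 0.00159, 0.0113 and 1.24e-13. The summit at 112231, with 262 over 191.5, had a fold of 1.37 and a q of 0.0610. The summit of the highest fold thus had the fewest fragments of the 6 and the lowest background.

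On GL000216.2, 1 of 5 summits passed, at 149587, with 173 fragments over 79.7 (fold 2.16, q 4.27e-14). The others there rested on 6 to 40 fragments. On GL000225.1, 3 of 4 passed, at 66301 (fold 2.63, q 0.00149), 81957 (fold 4.32, q 1.85e-07) and 93602 (fold 3.44, q 0.0068), with 41, 31 and 22 fragments. KI270734.1 held 1 summit, with 27 fragments over 7.83 (fold 3.17, q 0.00345). The 13 summits of the other 12 unplaced or unlocalized sequences had q of 0.184 or more. 
Chromosome 16 held the most members with q under 0.05 of the windows, 15 of 25. They stood in a block on either side of the centromere. The block on the short-arm side had 7 summits between 34576496 and 34593504, all with q under 0.05, with 133 to 320 fragments over 78.3 to 165.8 expected and folds of 1.69 to 2.44. The block on the long-arm side had 12 summits between 46380901 and 46400874, of which 8 passed, with 80 to 358 fragments over 38.4 to 259.8 and folds of 1.29 to 2.28. The median fold was 2.24 in the former and 1.43 in the latter, while the median number of fragments was 236 and 310.5. The long-arm block thus held more fragments and lower folds, on a median background of 191.5 against 96.1. A higher background also lets summits of lower fold into the list. Both blocks lay outside annotated genes, with LOC102724523, a long non-coding RNA gene, 143.4 to 160.4 kb from the summits of the former and the transcribed pseudogene ANKRD26P1 68.5 to 88.4 kb from those of the latter.

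**Figure D3:**
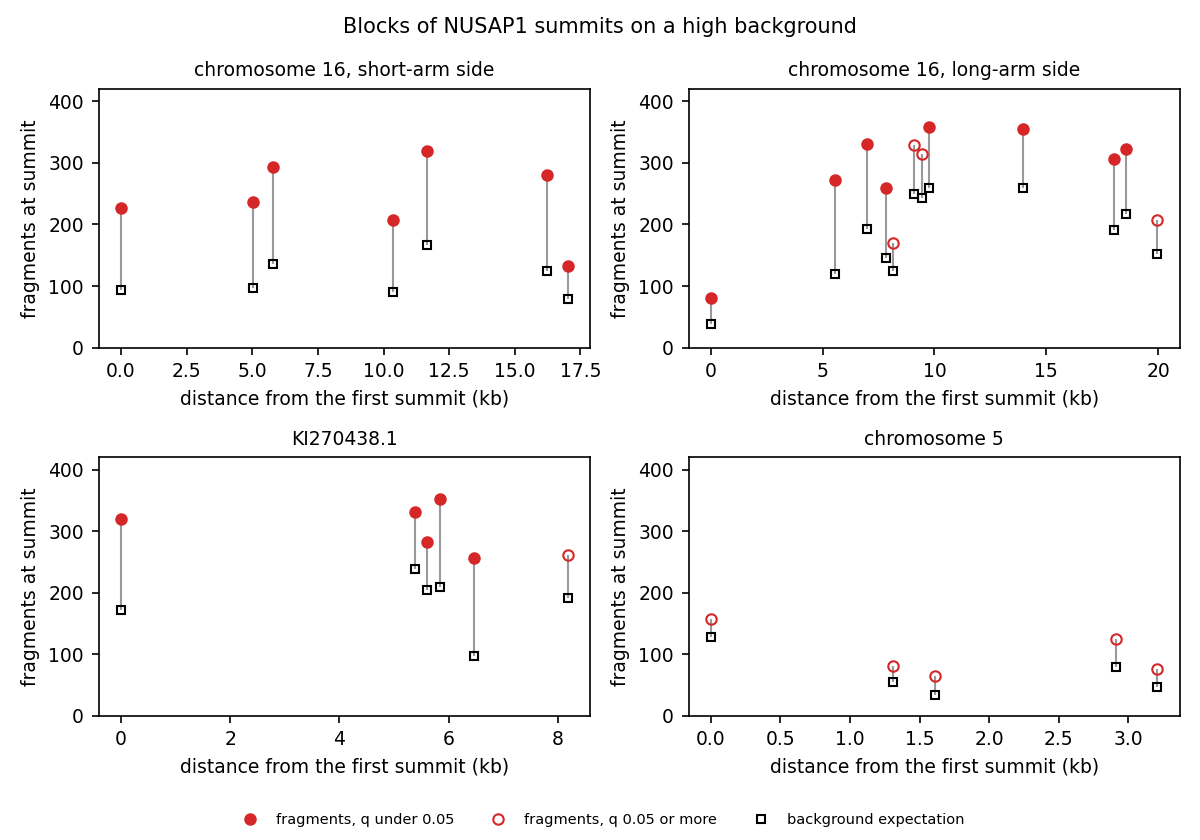
Fragments (red circles, filled where q is under 0.05) and background expectation (open squares) at the summits of 4 blocks, against the distance in kb from the first summit of each. Grey lines join the pair of values of a summit. On chromosome 5 the fragments run from 65 to 158 and no summit has q under 0.05. The median fold of that block, 1.55, is nevertheless above those of the chromosome 16 long-arm block (1.43) and of KI270438.1 (1.53), which hold more fragments.

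On chromosome 1, 6 of 19 members passed. The summits at 143213232, 143214751 and 143264661, on the long-arm side, had 293, 262 and 236 fragments over 130.2, 92.5 and 102.5 expected. Their folds were 2.24, 2.81 and 2.29, and their q 3.15e-28, 4.40e-40 and 1.70e-23. The nearest gene, the long non-coding RNA gene LOC101929814, was 86.3, 84.8 and 34.9 kb away. At 125180221 the member with the most fragments of all, 393, stood over 228.5 (fold 1.72, q 2.53e-17), 3608 kb from the nearest gene, EMBP1, and at 125182601 there were 196 over 131.0 (fold 1.49, q 0.00765). The sixth, at 121755249, was of another kind, with 9 fragments over 0.712 (fold 5.84, q 0.00102). All 6 lay in a stretch of 21.7 Mb without annotated genes, a length that counts any unassembled sequence in it.

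On chromosome 17, 7 of 22 members passed, between 23016350 and 26619670. Those at 26594895, 26603864 and 26619670 lay near one another, and the rest were further apart. The smallest q was at 25920219, with 140 fragments over 55.5 (fold 2.49, q 6.41e-16), and the highest fold at 26122698, with 16 over 2.85 (fold 4.42, q 0.00197). The other 5 had 88 to 210 fragments and folds of 1.52 to 2.48. All 7 lay in a stretch of 4.28 Mb without annotated genes. On chromosome 20, 5 of 26 passed. The summit at 28308147 had 93 fragments over 25.6 (fold 3.53, q 3.71e-19, ratio interval 2.45 to 5.49), the highest fold among the window members with 20 or more fragments. Its nearest gene was FRG1CP, at 272.5 kb. The other 4 had 8 to 53 fragments and folds of 2.34 to 5.27.

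The other windows held 1 or 2 members each with q under 0.05. Chromosome 11 had 54021246, with 68 fragments over 25.6 (fold 2.59, q 3.76e-07), and 52030750, with 18 over 3.56 (fold 4.17, q 0.00167). Chromosome 10 had 39967618, with 93 over 44.8 (fold 2.05, q 2.93e-05), and 41583299, with 9 over 0.708 (fold 5.85, q 0.000986). Chromosome 2 had 1 of 49, at 90383550, with 77 over 36.3 (fold 2.09, q 0.000311). On chromosome 4 the summit at 49149461 had 159 over 103.2 (fold 1.54, q 0.0183). Chromosomes 3, 5 and 7 each had 1, at 90779077, 50110021 and 59251722, with 10, 8 and 9 fragments on backgrounds of 1.42, 0.712 and 0.708, and with folds of 4.54, 5.26 and 5.85.

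Deep background did not always come with a small q. On chromosome 5, 5 summits within 3.21 kb, from 49658592 to 49661801, rested on 65 to 158 fragments over 34.2 to 127.4 and had q from 0.0857 to 1. Of the 92 members on a high background, as defined above, 38 did not pass. In the opposite class, 9 members passed on a lower background, with 8 to 11 fragments and folds of 4.54 to 6.43. Of these, 8 were in the windows, on chromosomes 1, 3, 5, 7, 10 and 20.

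Set beside other summits of like background, members had the larger share with q under 0.05 in the lower classes. At a background of up to 1.5 times the lowest, 7 of 105 members passed (6.67%, Wilson interval 3.27 to 13.1) and 47 of 6634 other summits did (0.708%, 0.533 to 0.941). From 1.5 to 3 times, it was 2 of 50 members and 15 of 2059 other summits (0.729%), with overlapping intervals. From 3 to 10 times, it was 8 of 22 (36.4%, 19.7 to 57.0) and 6 of 96 (6.25%, 2.90 to 13.0). Without KI270733.1 the member share of this class was 4 of 18 (22.2%), and its interval overlapped that of the other summits. From 10 to 100 times the shares were close, 18 of 34 (52.9%) and 3 of 6, the latter too few for a comparison. Above 100 times there was 1 other summit, which did not pass, and 28 of 36 members did. The median fold of members in the 5 classes, from the lowest up, was 3.49, 2.96, 3.28, 2.19 and 1.68, and that of other summits 3.15, 2.89, 2.83, 2.31 and 1.32. These values describe 1 list and have no replicate behind them. The intervals treat neighbouring summits as independent, so whether they overlap is no test.

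**Figure D4:**
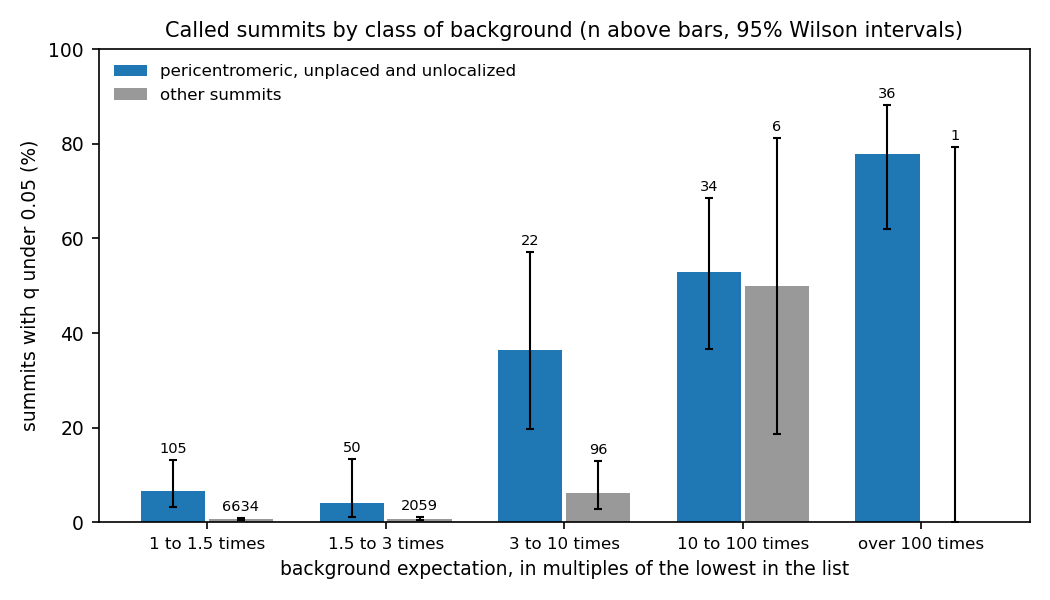
Percentage of summits with q under 0.05 (y axis) by class of background expectation, in multiples of the lowest value of the list (x axis). Blue bars are the members and grey bars the other summits, with 95% Wilson intervals and the number of summits above each. Members stand above other summits in the 3 lower classes.

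Summits as such were not denser near centromeres. The 11 windows held 2.08 summits per Mb (exact Poisson interval 1.81 to 2.39), and the rest of the same chromosomes, from the first to the last gene or summit, held 3.76. The lengths include unassembled stretches. The density of summits with q under 0.05 went the other way, with 0.424 per Mb (0.306 to 0.573) in the windows and 0.0289 (0.0212 to 0.0384) in the rest, a ratio of 14.7. It was higher in the window than in the rest on all 11 chromosomes, and on chromosome 20 no summit outside the window passed. On chromosomes 2, 3, 4, 5 and 7, however, the window value rests on 1 summit each, as at chromosome 2 with 0.1 per Mb against 0.0388. No interval was worked out for this density in single windows. By density of all summits, the windows of chromosomes 2, 4 and 20 were above the rest of their chromosome, at 4.90, 1.00 and 3.71 per Mb against 4.49, 0.708 and 3.23. In each of them the value for the rest lay within the Poisson interval of the window.

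**Figure D5:**
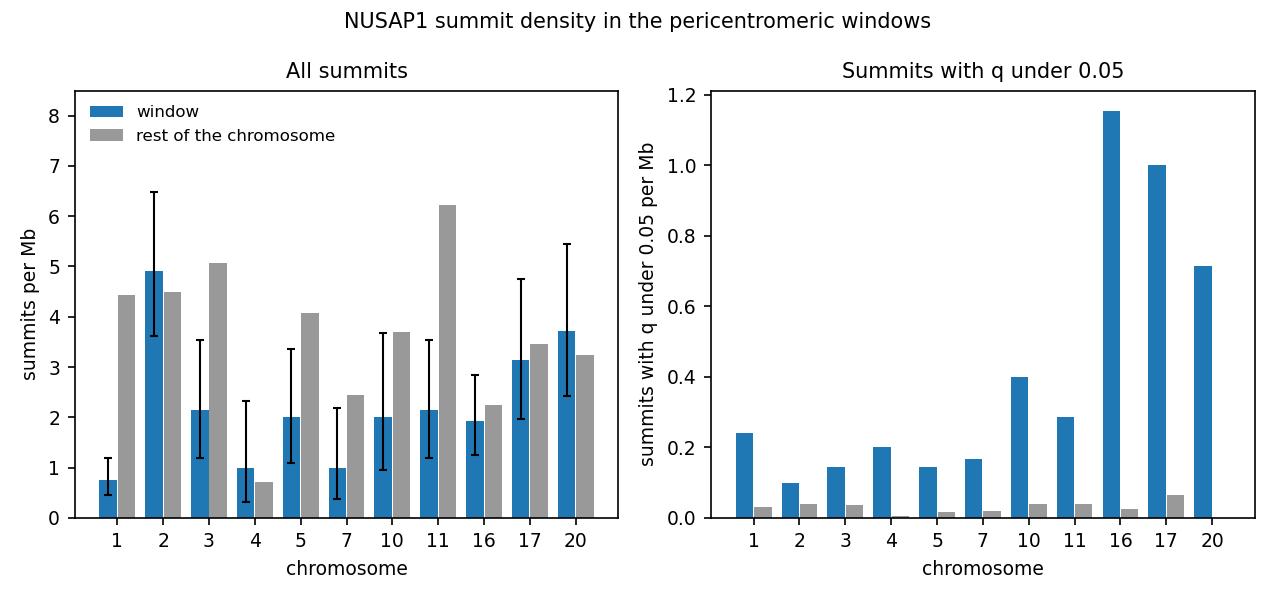
Summits per Mb (left) and summits with q under 0.05 per Mb (right) in each window (blue) and in the rest of the same chromosome (grey). Error bars, in the left panel, are 95% Poisson intervals for the windows. On chromosome 16 the window holds 1.15 summits with q under 0.05 per Mb and the rest 0.0259.

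Members also stood in clusters. Clusters of 3 or more summits, each within 5 kb of the next, held 42 members (17.0%) in 7 clusters, and 24 of the other summits (0.273%) in 8. The largest cluster of members had 11 summits in 14.4 kb, on the long-arm side of chromosome 16, and no cluster of other summits had more than 3. Of the 63 members with q under 0.05, 27 stood in such clusters and 32 stood alone. Several summits in 1 region occurred in 6 of the 238 member regions and in 1 of the 8795 other regions. Peak widths had a median of 211 bp in members and 199 bp, the smallest width in the list, in the others.

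None of the 42 window members with q under 0.05 lay inside an annotated gene or within 1 kb of a gene end, which for 0 of 42 allows a share of up to 7.14% by the limit of 3 counts in the total (the Wilson upper limit was 8.38%). Of the other summits with q under 0.05 on chromosomes, 34 of 71 (47.9%, Wilson interval 36.7 to 59.3) were inside a gene. Whatever their q, 45 of the 206 window members (21.8%) and 5095 of the 8796 other summits (57.9%) were inside one, so the windows met fewer genes throughout. The limits given for 0 of 42 treat the 42 as independent, although 15 of them stood in the blocks of chromosome 16. The nearest gene to those 42 was 11.8 kb away at the closest, with a median of 157.3 kb. It was a pseudogene, transcribed or not, in 26 cases, a long non-coding RNA gene in 13 and a protein-coding gene in 3. The closest pairs were LOC101927209 at the chromosome 4 summit (11.8 kb), FRG1DP, a relic of the FRG1 family, at 29065996 on chromosome 20 (14.4 kb), and DEFB115, a beta-defensin gene, at 31241769 on the same chromosome (15.9 kb). The longest gene-free stretch of each window, 60.9 of 99 Mb in all, held 29 of the 42, and 70 of all 206 window members. Neither the lengths of gene-free stretches nor the distances to genes were corrected for unassembled sequence, which holds no annotated gene.

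The members that did not pass the test met genes more often. Of these 164 in the windows, 45 (27.4%, 21.2 to 34.7) lay inside a gene, where 5061 of the 8725 other summits that did not pass lay inside one. The immunoglobulin kappa locus IGK (chromosome 2, 88857361 to 90235368), whose segments are joined in B cells to make light chains, held 8, with folds of 2.44 to 3.78 and q of 0.433 or more. KSR1 held 2 in its body besides the one at its promoter, with folds of 4.17 (q 0.281) and 3.28 (q 0.779). Among the other genes that held 2 each were EPHA3, an ephrin receptor gene, TEC, a tyrosine kinase gene of blood cells, and ANKRD36. EIF2AK3, which encodes the stress kinase PERK, had 1 (fold 3.75, q 0.418), as had SNRNP200, a helicase of the spliceosome (fold 2.91, q 0.999), and NINL, which encodes a centrosomal protein (fold 3.51, q 0.779).

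By gene family, a member lay in or within 1 kb of 3 of the 14 zinc finger genes of the windows, ZNF33A (fold 3.78, q 0.433), ZNF892 (3.15, q 0.779) and ZNF2 (2.81, q 1). A further list, picked by the start of the symbol, joined segmentally duplicated families with all symbols starting LINC, which is not a family. Of its 79 genes, 7 had one. The highest was at NBPF26 (fold 4.67, q 0.0857), of the neuroblastoma breakpoint family that expanded in primates, followed by ANKRD36C (3.22, q 0.779) and LINC02798 (3.10, q 0.779). Immunoglobulin kappa entries had one at 3 of 94, IGK and the segments IGKV3-11 (fold 3.78) and IGKV4-1 (fold 2.44) inside it, and olfactory receptor genes at 0 of 63. For all 1013 genes of the table in the windows the count was 44 (4.34%).

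Genes for proteins of the centromere and of the nucleolus lay elsewhere in the genome and held no member. In the whole list, summits lay in or within 1 kb of 4 of the 41 centromere and kinetochore genes: INCENP of the chromosomal passenger complex (fold 3.52, q 0.753), the kinetochore gene NUF2 (3.52, q 0.753), the centromeric cohesin protector SGO2 (3.03, q 0.866) and the kinase AURKB (2.50, q 1). Of 22 nucleolar and ribosomal DNA transcription genes, 2 were met by a summit, NPM1, the nucleolar chaperone nucleophosmin (3.02, q 0.779), and UBTF, the factor that keeps ribosomal genes active (3.24, q 0.779). Summits met 2702 of the 19866 protein-coding genes in the same way (13.6%), so neither list stood above that share. None of these 6 passed.

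Of the summits around the window bounds, the 22 members nearest on the inner side had folds of 1.37 to 4.68 (median 3.03), and the 22 nearest on the outer side had folds of 2.09 to 4.36 (median 3.13). None on either side had q under 0.05.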

How the data were processed

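All values come from 1 peak list, that of the library made with the NUSAP1 antibody, on build hg38. Bcl2fastq 2.17, Trimmomatic 0.33, Bowtie 1.1.2 and MACS2 2.1.0 were used by the authors, per the submitters' processing notes, which as used here give no settings. The authors deposited for each summit its fold enrichment (a ratio), -log10 p, -log10 q, its offset in bp as a further, other column, and a score that equals 10 times -log10 p without its decimals. The number of reads in each library is not part of the list.

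Positions are given from 1. Fragments and background at each summit were worked out from the fold, read as (fragments + 1) / (background + 1), and the Poisson p, with a largest error of 0.000262 in -log10 p. On data simulated with this same formula, with all backgrounds on whole steps, 491 of 491 summits were recovered. That simulation could not test the formula itself or backgrounds between steps. The reading of the background in steps of 0.712, the ratio intervals and the gene-free stretches were chosen after the data were seen. Genes came from a RefSeq table of GRCh38.p14 without strand or exons, of which 58961 genes on assembled chromosomes were used and 831 were not. KSR1 was the single promoter overlapped by a member. By rule, the text names genes at members with q under 0.05 (there were none on chromosomes), the nearest gene of the 20 members with the smallest q, up to 4 members of each list and, after their values were seen, LOC101927209, FRG1DP, DEFB115, KSR1, EPHA3, TEC, ANKRD36, EIF2AK3, SNRNP200 and NINL. The members and lists were chosen with earlier results of these data known. No test was made between members and other summits, since peaks of 1 library are not replicates. Background classes were set at 1.5, 3, 10 and 100 times the lowest. Shares carry 95% Wilson intervals and counts exact Poisson intervals. Both treat summits as independent, which summits of the same cluster or region are not. Alternatives were stricter limits on q, fold and fragments, merged peaks, other window bounds and subsets of the members. The sequence under the members, other than at KSR1, was not analysed here. Computation was in Python 3.11.15 with scipy 1.17.1, pandas 2.3.3, numpy 2.4.6 and, for figures, matplotlib 3.10.9.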

Additional observations from a re-analysis of the deposited data

How the results depend on the processing

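No paired analysis was possible because there was 1 library of each kind and the values came from no test between groups. Values were taken as moved where they left the main 95% interval. The share of members with q under 0.05, 25.5%, was 15.0% at -log10 q of at least 5, 5.26% with fold of at least 5 in place of q (0.597% over the whole list), 48.8% among members of 7 or more fragments, 20.4% in the windows alone, 51.2% on unplaced and unlocalized sequences alone, 31.3% without the chromosome 2 window and 5.81% on a background under 3 times the lowest. In that same order of limits, the median fold of 2.93 became 2.41, 5.85 and 2.63, and it was 2.38 at q under 0.01, 3.25 on the unplaced and unlocalized sequences and 3.28 on the low background. The median background of 1.27 became 90.4, 0.712 and 10.7, and it was 56.2 at q under 0.01, 6.41 on the unplaced and unlocalized sequences and 0.878 on the low background. The 40 members among the 50 smallest q became 13 with fold of at least 5, 29 with windows narrowed by 1 Mb, 29 without KI270733.1, 29 without the chromosome 16 window, 24 in the windows alone, 16 on the unplaced and unlocalized sequences alone and 8 on the low background. The windows' 2.08 members per Mb became 0.364 at q under 0.01, 0.222 at -log10 q of at least 5, 0.0606 with fold of at least 5, 0.980 at 7 or more fragments, 1.64 with windows narrowed by 1 Mb, 2.53 without chromosome 1, 1.76 without chromosome 2 and 1.44 on the low background. Stricter limits keep fewer summits by construction, and the cause of the other changes was not tested. Merging peaks within 1 kb and widening the windows by 1 Mb left all of these values within their intervals.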

Other observations

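Other summits on a high background lay outside the windows. On chromosome 6, the summit at 59163250 had 182 fragments over an expected 70.5, at fold 2.56 and q 1.21e-22. On chromosome 13, a region from 18211779 to 18212156 held summits of 72 fragments over 38.4 (fold 1.85, q just above 0.05) and 95 over 65.5 (fold 1.44, q 0.779). On chromosome Y, the summit at 11722022 had 135 over 101.8 (fold 1.32, q 0.944), the highest background outside the members, and that at 56763497, on a low background, had 14 over 0.708 (fold 8.78, q 1.13e-09). These are positions in the alignment, and whether the cells carry chromosome Y, or the fragments came from like sequence elsewhere, was not tested. Away from centromeres, 133689412 on chromosome 10 had 59 over 18.5 (fold 3.08, q 7.75e-09) and 2652343 on chromosome 1 had 45 over 13.5 (fold 3.17, q 1.20e-06).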
